A study of Mus musculus with 8 samples.

Results

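The transcripts that set how much hyaluronan a cell makes, breaks down and binds, and those of the tenascins, were followed in 4T1 cells, a mouse line of triple-negative breast cancer (TNBC). The 9 genes, of 54532 listed, were chosen by name for these roles: the hyaluronan synthases Has1, Has2 and Has3, the precursor enzyme Ugdh, the hyaluronidases Hyal1 and Hyal2, the receptor Cd44 and the tenascins Tnc and Tnxb. Has3 and Tnxb were selected on their strong fall in shMCT-1 cells in these same libraries, so their shMCT-1 values are a description and carry no test. The shMCT-1 line stably carried 1 shRNA directed at MCT-1, the scramble line carried a control shRNA, and both had been kept under puromycin. Each line received either IgG or an antibody against the mouse IL-6 receptor (anti-IL-6R) at 100 ng/ml for 48 h. Poly(A) RNA of each of these 4 groups was sequenced in 2 libraries. The sources name the replicates as biologically independent but do not say whether a line is a clone or a pool, so that differences between lines and the effect of the shRNA cannot be told apart. The questions were how these genes differ between shMCT-1 and scramble cells and whether anti-IL-6R moves them.

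Hyaluronan is a long sugar polymer of the extracellular matrix that is spun out at the plasma membrane by a synthase from UDP-glucuronic acid and UDP-N-acetylglucosamine. Hyaluronidases cut it into shorter chains, lysosomal enzymes take these apart, and CD44 is its main cell surface receptor, with known roles in the adhesion and migration of breast cancer cells. Tenascins are large matrix glycoproteins that modulate adhesion. Tenascin C is abundant in tumor stroma, and tenascin X is known mainly from the collagen matrix of connective tissue.

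Library totals were 24100084 to 33063570 counts in scramble and 19839299 to 23448587 in shMCT-1 cells, and levels are given in CPM, the count of a gene relative to its library total. Mcts1, the gene of MCT-1, was at 11.8 to 15.4 CPM in the 4 scramble and at 4.92 to 6.70 CPM in the 4 shMCT-1 libraries. Epithelial markers summed to 2386 to 2539 CPM in scramble and 3166 to 3430 CPM in shMCT-1 libraries, and 5 of 6 rose, among them Krt8, the most abundant, and Epcam, whose log2 fold change of 3.60 was the largest of the list, beside 35.0% of all tested genes called higher. Not all epithelial genes went this way, as Krt19 and the epithelial splicing factors Esrp1 and Esrp2 were lower in shMCT-1 cells. Their values are given further on, where Krt19 is named for its likeness to Tnxb, a gene chosen for its fall. Markers of other cell types were sparse. Of 6 fibroblast markers 4 were under 1 CPM throughout, with Lum at 0. Their sum was 15.3 to 17.2 CPM in scramble and 12.7 to 16.2 CPM in shMCT-1 libraries. Most of it was Pdgfra, which was not called (log2 fold change -0.16 ± 0.10, edgeR, adjusted p = 0.178). Col1a1 was higher in shMCT-1 libraries, at 1.07 to 1.66 CPM against 0.249 to 0.484 CPM in scramble. It passed the filter on low values through the shMCT-1 libraries alone, so no test is given. Of 6 leukocyte markers 5 were under 1 CPM throughout, with Adgre1 and Cd3e at 0, and the sum was 2.75 to 3.52 CPM in scramble and 5.51 to 7.51 CPM in shMCT-1 libraries, nearly all of it Cd68. Of 4 endothelial markers 3 were under 1 CPM throughout, and the sum was 0.0960 to 0.332 CPM in scramble and 0.554 to 1.91 CPM in shMCT-1 libraries, where Cdh5 reached 1.46 CPM. The part of these markers in the results was not tested. In bulk RNA, fewer cells of a kind and less RNA per cell cannot be told apart.

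Between the lines Tnc and Tnxb differed in opposite directions, and the sequences before their starts are shown for that reason. They are the 250 bases before the first annotated base of each gene, from RefSeq on GRCm38.p6, with matches to searched motifs in capitals. The Tnxb sequence lies on the plus strand at chr17:34670285-34670534 and the Tnc sequence on the minus strand at chr4:64047016-64047265.
Tnxb: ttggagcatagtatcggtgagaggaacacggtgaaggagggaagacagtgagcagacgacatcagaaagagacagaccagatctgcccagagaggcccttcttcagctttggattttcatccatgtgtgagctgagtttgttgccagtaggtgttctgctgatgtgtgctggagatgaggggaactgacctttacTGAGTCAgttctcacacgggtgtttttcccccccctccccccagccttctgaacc
Tnc: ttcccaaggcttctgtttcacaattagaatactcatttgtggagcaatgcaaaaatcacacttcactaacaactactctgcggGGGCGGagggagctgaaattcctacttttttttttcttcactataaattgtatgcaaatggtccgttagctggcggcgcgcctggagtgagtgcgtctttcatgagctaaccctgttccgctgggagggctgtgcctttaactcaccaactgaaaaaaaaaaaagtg
The motif search covered windows of 300 bases, which also took in 50 bases after the start that are not shown. In the Tnxb window the capitals mark an AP-1 match (TGANTCA) 55 bases before the start, a motif that 7.81% of all 32851 promoter windows held. The capitals of the Tnc window mark a GC box match (GGGCGG or its reverse complement) 167 bases before the start, a motif that 35.7% of windows held. GC box matches also lay in the windows of Cd44, Ugdh, Hyal1 and Hyal2, whose differences between the lines went in various directions. Promoters were found for 7 of the 9 genes, and Has2 and Has3 were without one. Tnc had a further window with a later start, which held the same GC box match. Neither a STAT motif (TTCNNNGAA, in 8.30% of windows) nor an E-box (CACGTG, in 7.15%) matched any of them, on either strand. A match or its absence is a description of the letters only.

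Compared per kilobase of exon, which allows levels of different genes to be set side by side, Cd44 was the most abundant of the 9 genes in scramble cells, at 62.5 ± 0.73 CPM per kilobase (SD, n = 4). Has2 followed at 36.7 ± 2.85 and Ugdh at 23.2 ± 0.27 CPM per kilobase. Hyal2 at 9.10 ± 0.37 and Tnxb at 8.93 ± 0.71 CPM per kilobase overlapped, and Has3 came next at 6.72 ± 0.64 CPM per kilobase. With the longest transcript as the length, Hyal2 at 9.76 to 10.6 lay above Tnxb at up to 9.54 CPM per kilobase. Tnc at 1.09, Hyal1 at 0.502 and Has1 at 0.177 CPM per kilobase were the lowest. In shMCT-1 cells Has2 at 51.7 ± 3.19 and Cd44 at 48.4 ± 3.36 CPM per kilobase overlapped, and their order was the opposite when the longest transcript was taken as the length (Cd44 58.5, Has2 51.7 CPM per kilobase). Tnxb and Has3 had moved to the low end, at 0.351 and 0.0956 CPM per kilobase, the latter overlapping with Has1 at 0.0944 CPM per kilobase.

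**Figure D1:**
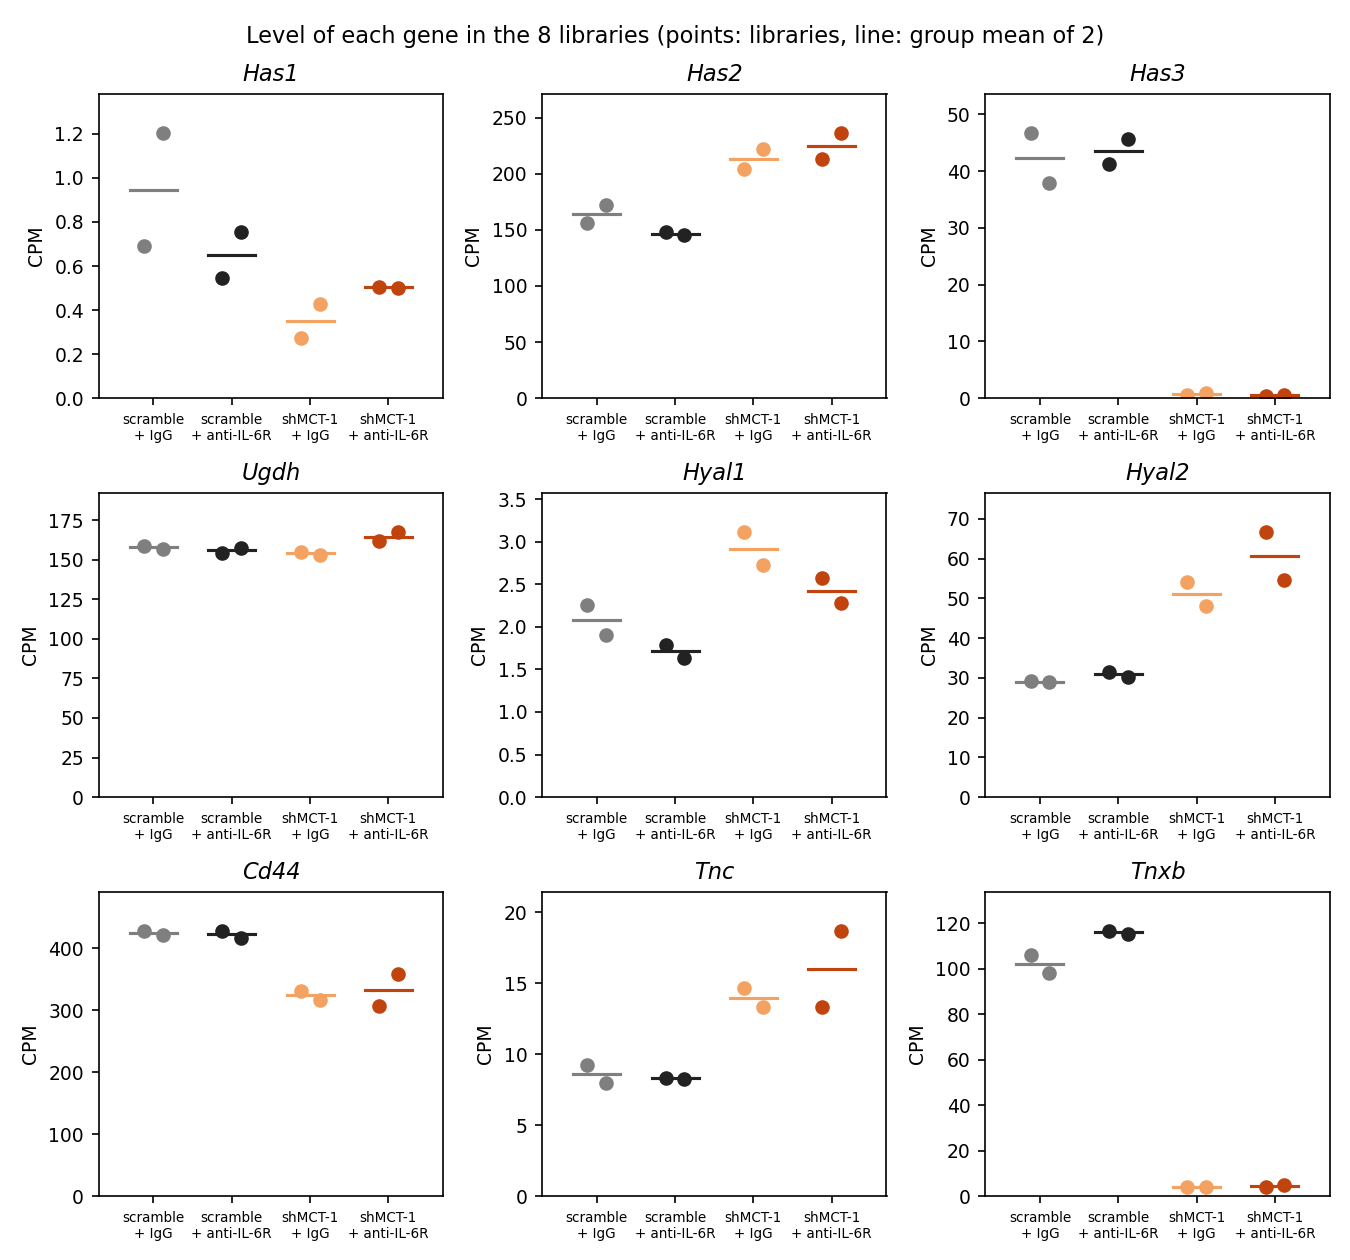
Level of each of the 9 genes in CPM (vertical axis, from 0) in the 4 groups (horizontal axis). Points are libraries and lines are group means of 2 libraries. Has3 and Tnxb sit near the axis in shMCT-1 cells, at up to 0.896 and 5.05 CPM, Hyal2 and Tnc sit higher there, and Ugdh overlaps between the lines.

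The synthases went separate ways. Has2, the synthase that in these cells held most of the synthase transcripts, stood at 156 and 172 CPM in scramble + IgG, 148 and 145 CPM in scramble + anti-IL-6R, 204 and 222 CPM in shMCT-1 + IgG and 214 and 236 CPM in shMCT-1 + anti-IL-6R (replicates 1 and 2 of each group). All 4 shMCT-1 libraries lay above all 4 scramble libraries. Has2 rose by a log2 fold change of 0.42 ± 0.09 (SE) within IgG (adjusted p = 0.0042, edgeR's quasi-likelihood test with Benjamini-Hochberg adjustment, as for all adjusted p-values here unless another tool is named). Within anti-IL-6R the edgeR log2 fold change was 0.67 ± 0.09 (adjusted p = 0.000315), and across both treatments it was 0.55 ± 0.07 (adjusted p = 6.07e-05). Has2 lies at chr15:56665627-56694539 (GRCm38, Ensembl ENSMUSG00000022367).

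Has3, which makes hyaluronan chains that are typically shorter than those of HAS2, stood at 46.7 and 37.9 CPM in scramble + IgG and 41.3 and 45.6 CPM in scramble + anti-IL-6R. Among the shMCT-1 libraries it stood at 0.549 and 0.896 CPM with IgG and 0.403 and 0.592 CPM with anti-IL-6R. The counts behind these levels were 913 to 1509 per scramble library and 8 to 21 per shMCT-1 library, and the sets did not overlap, which is what the gene was chosen for. The mean level was 70.3-fold lower in shMCT-1 cells, and the fitted log2 fold changes were -5.81 ± 0.20 (SE) within IgG, -6.37 ± 0.22 within anti-IL-6R and -6.05 ± 0.15 across both treatments. Has3 passed the filter on low values through the scramble libraries alone. It lies at chr8:106870242-106884566 on the plus strand and shares 352 exon bases (5.52% of its exons) with Chtf8 on the opposite strand, which stood at 238 CPM in scramble and 236 CPM in shMCT-1 cells. Which strand setting was used in counting is not given in the sources used here, so reads of that stretch cannot be told apart.

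Has1, the least abundant synthase, stood at 0.690 and 1.20 CPM in scramble + IgG, 0.544 and 0.756 CPM in scramble + anti-IL-6R, 0.275 and 0.426 CPM in shMCT-1 + IgG and 0.504 and 0.501 CPM in shMCT-1 + anti-IL-6R. These rest on 17 to 29 counts per scramble library and 6 to 11 per shMCT-1 library. The lines did not overlap, which also held for 64.4% of all tested genes. The mean log2 CPM was 0.80 lower on that scale in shMCT-1 cells (log2 difference -0.80, exact two-sided permutation test of 4 against 4 libraries, unadjusted p = 0.0286, the smallest p this design can give). Has1 was above 1 CPM in only 1 library and was left out of the fit. Where a looser filter (edgeR's filterByExpr) kept it, the edgeR log2 fold change was -1.35 ± 0.50 within IgG (adjusted p = 0.0443), -0.29 ± 0.49 within anti-IL-6R (adjusted p = 0.633) and -0.81 ± 0.37 across both treatments (adjusted p = 0.0731). At this depth a fall of Has1 was therefore called within IgG alone, and whether it differed between the treatments was not shown, as the edgeR interaction under the same filter was 1.06 ± 0.70 (adjusted p = 1). Has1 lies at chr17:17843323-17855205.

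Summed per kilobase, synthase transcripts amounted to 43.6 ± 2.53 CPM per kilobase (SD, n = 4) in scramble and 51.9 ± 3.21 CPM per kilobase in shMCT-1 cells, with every shMCT-1 library (48.4 to 55.9) above every scramble library (41.5 to 46.8). In plain CPM the sums overlapped, at 190.0 to 211 in scramble and 205 to 237 in shMCT-1 libraries. Has2 made up 84.1% ± 1.90 of the sum per kilobase in scramble and 99.6% ± 0.06 in shMCT-1 cells. The share of Has3 in the same per-kilobase sum was 15.5% ± 1.99 in scramble, between 12.7% and 17.2% in single libraries, and 0.184% ± 0.06 in shMCT-1 cells. Since Has3 was chosen for its fall, these shares are a description.

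**Figure D2:**
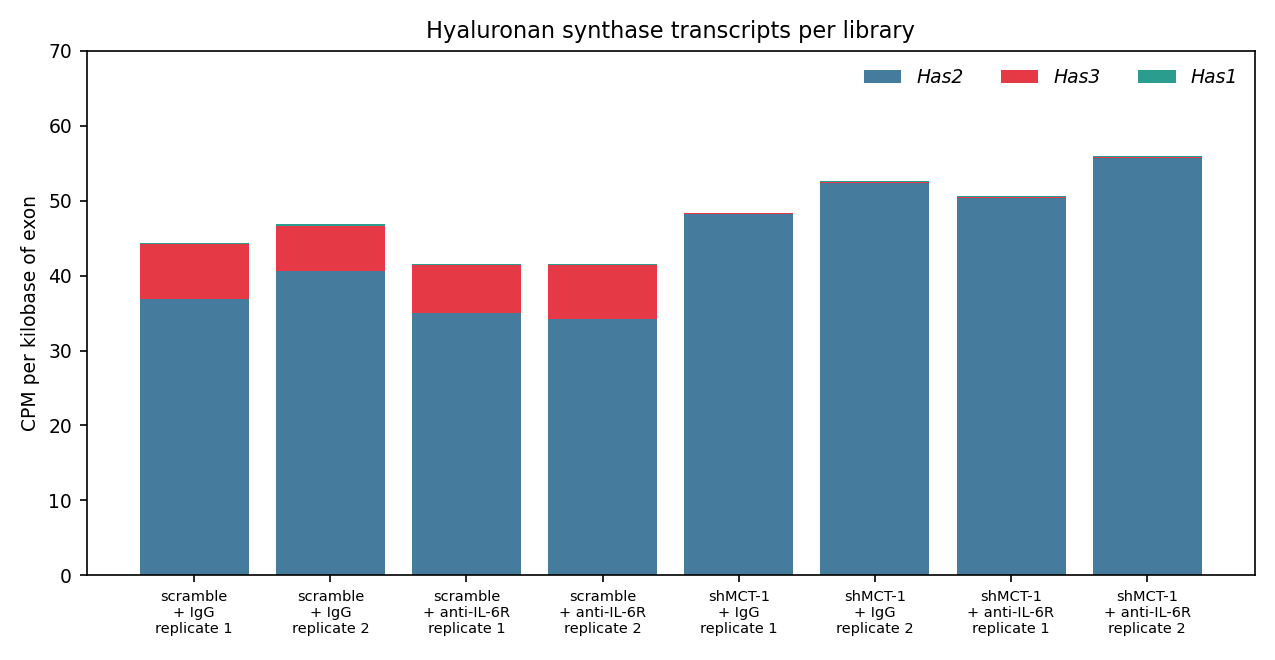
Transcripts of Has2 (blue), Has3 (red) and Has1 (green) per library, stacked, in CPM per kilobase of exon (vertical axis). The red segment is visible in the 4 scramble libraries and hardly at all in the 4 shMCT-1 libraries, where the bars are nonetheless taller.

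Ugdh, the UDP-glucose dehydrogenase that makes UDP-glucuronic acid, hardly varied. It stood at 159 and 157 CPM in scramble + IgG, 155 and 157 CPM in scramble + anti-IL-6R, 155 and 153 CPM in shMCT-1 + IgG and 162 and 167 CPM in shMCT-1 + anti-IL-6R. The lines overlapped. Across both treatments the edgeR log2 fold change was 0.07 ± 0.05 (95% interval -0.04 to 0.18, adjusted p = 0.243). Within anti-IL-6R it was 0.13 ± 0.07 (edgeR, adjusted p = 0.151), and within IgG it was 0.01 ± 0.07 (adjusted p = 0.947), with the opposite sign when scaled by library totals (-0.04) or RLE size factors (-0.01). Ugdh lies at chr5:65413221-65435949.

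Of 6 tested genes of UDP-sugar supply, Ugdh among them, 3 rose across both treatments and none fell, where 35.0% of all tested genes were called higher and 34.0% lower. The median log2 fold change of these 6 genes was 0.11 (0.01 over all tested genes). Gnpnat1, the acetyltransferase of the UDP-N-acetylglucosamine branch, had the largest log2 fold change at 0.67 ± 0.08 (edgeR, adjusted p = 3.47e-05). Uap1, which makes UDP-N-acetylglucosamine itself, was the most abundant of those called, with a log2 fold change of 0.21 ± 0.06 (edgeR, adjusted p = 0.00677). Within IgG alone Uap1 was not called (edgeR, adjusted p = 0.143). Ugp2, which makes UDP-glucose, was the other gene that rose, by 0.15 ± 0.06 (edgeR, adjusted p = 0.0375). It was not called within IgG (edgeR, adjusted p = 0.114) or within anti-IL-6R (adjusted p = 0.255), and the lines overlapped.

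Hyal2, a membrane-anchored hyaluronidase that cuts long hyaluronan chains at the cell surface, rose. It stood at 29.1 and 29.0 CPM in scramble + IgG, 31.6 and 30.2 CPM in scramble + anti-IL-6R, 54.1 and 48.1 CPM in shMCT-1 + IgG and 66.6 and 54.5 CPM in shMCT-1 + anti-IL-6R. The lines were far apart, the mean in shMCT-1 cells being 1.86 times that in scramble cells. The log2 fold change was 0.86 ± 0.11 within IgG (edgeR, adjusted p = 0.000247), 1.03 ± 0.11 within anti-IL-6R (adjusted p = 8.52e-05) and 0.94 ± 0.08 across both treatments (adjusted p = 2.47e-06).

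Hyal1, the lysosomal hyaluronidase, was a low transcript at 2.25 and 1.91 CPM in scramble + IgG, 1.79 and 1.63 CPM in scramble + anti-IL-6R, 3.11 and 2.73 CPM in shMCT-1 + IgG and 2.57 and 2.28 CPM in shMCT-1 + anti-IL-6R. The highest scramble library, at 2.25 CPM, lay just under the lowest shMCT-1 library, at 2.28 CPM. The difference was not called within IgG (log2 fold change 0.53 ± 0.24, edgeR, adjusted p = 0.0849) or within anti-IL-6R (0.55 ± 0.24, adjusted p = 0.0777), and was called across both treatments (0.54 ± 0.16, adjusted p = 0.0125). Hyal1 lies at chr9:107576927-107581710, 4147 bases from Hyal2 at chr9:107567945-107572779. Its counts are uncertain, because 1920 bases (50.8% of its exons) are shared on the same strand with Naa80, an N-acetyltransferase gene with 275 to 363 counts per library, whose own log2 fold change was 0.39 ± 0.09 (edgeR, adjusted p = 0.0028).

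Of 12 genes of hyaluronan degradation 6 were tested, of which 5 rose and 1 fell across both treatments, with a median log2 fold change of 0.79, beside 35.0% of all tested genes called higher and 34.0% lower. The lysosomal enzymes that remove single sugars were among those that rose. Hexa, the alpha subunit of beta-hexosaminidase, changed most, from 7.18 to 8.61 CPM in scramble to 20.5 to 24.3 CPM in shMCT-1 libraries (log2 fold change 1.53 ± 0.08, edgeR, adjusted p = 1.43e-07). Gusb, beta-glucuronidase and the most abundant of the list, rose by a log2 fold change of 1.06 ± 0.06 (edgeR, adjusted p = 1.27e-07). Cemip2, a cell surface protein linked to hyaluronan breakdown, fell, with a log2 fold change of -0.26 ± 0.10 (edgeR, adjusted p = 0.0337). It was not called within IgG (edgeR, adjusted p = 0.283) or within anti-IL-6R (adjusted p = 0.0745). Hyal3 stood at 0.229 to 0.509 CPM and Cemip at up to 0.101 CPM. Hyal4, Hyal5, Hyal6 and Spam1 had 0 counts in all 8 libraries, which allows up to 0.0907 CPM in the largest library and 0.151 CPM in the smallest, for counting error only.

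Cd44 was lower in shMCT-1 cells. It stood at 427 and 422 CPM in scramble + IgG, 427 and 417 CPM in scramble + anti-IL-6R, 331 and 317 CPM in shMCT-1 + IgG and 306 and 359 CPM in shMCT-1 + anti-IL-6R. The 4 scramble libraries lay within 417 to 427 CPM, all above the shMCT-1 libraries, which spread more widely. Cd44 fell, with a log2 fold change of -0.35 ± 0.09 within IgG (edgeR, adjusted p = 0.00932), -0.29 ± 0.09 within anti-IL-6R (adjusted p = 0.0218) and -0.32 ± 0.06 across both treatments (adjusted p = 0.00071). The call within IgG was lost without shMCT-1 + IgG replicate 2 (edgeR, adjusted p = 0.0702). Within anti-IL-6R it was lost without scramble + anti-IL-6R replicate 1 (edgeR, adjusted p = 0.128), scramble + anti-IL-6R replicate 2 (adjusted p = 0.0867) or shMCT-1 + anti-IL-6R replicate 1 (adjusted p = 0.16). The gene lies at chr2:102811141-102901665, and the 1000 other tested genes of chromosome 2 had a median log2 fold change of -0.37, with 53.1% of them below Cd44. The part of this chromosome-wide shift in the value for Cd44 was not tested. The counts are per gene, so the variant exons of CD44 were not measured.

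All 3 hyaluronan receptors that were expressed enough to be tested fell across both treatments, with a median log2 fold change of -0.51, beside 34.0% of all tested genes called lower. Hmmr, the receptor for hyaluronan-mediated motility, which also works at the mitotic spindle, stood at 123 to 144 CPM in scramble and 77.5 to 99.8 CPM in shMCT-1 libraries (log2 fold change -0.51 ± 0.09, edgeR, adjusted p = 0.000378). Stab1, a scavenger receptor, stood at 70.8 to 90.3 CPM in scramble and 37.6 to 43.4 CPM in shMCT-1 libraries (log2 fold change -0.98 ± 0.08, edgeR, adjusted p = 1.76e-06). The remaining receptors were hardly detected, Lyve1 at up to 0.0455 CPM, Stab2 at up to 0.291 CPM and Layn at up to 0.0727 CPM.

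Among 11 partners, sheddases and splicing factors of CD44, all of which were tested, 3 rose, 5 fell and 3 were not called across both treatments (median log2 fold change -0.06). With 69.0% of all tested genes called, this share is near that of all genes. Of those that rose, Mmp9, a gelatinase that docks on CD44, stood at 46.6 to 64.7 CPM in scramble and 181 to 235 CPM in shMCT-1 libraries (log2 fold change 1.97 ± 0.10, edgeR, adjusted p = 7.13e-08). Mmp14, a membrane-bound protease that cleaves CD44 and the most abundant of those called, rose by a log2 fold change of 0.67 ± 0.05 (edgeR, adjusted p = 1.37e-06). Adam10, a CD44 sheddase, rose by 0.20 ± 0.08 (edgeR, adjusted p = 0.0327), but was not called within IgG (adjusted p = 0.225) or within anti-IL-6R (adjusted p = 0.106). Adam17, a related sheddase, fell, with a log2 fold change of -0.61 ± 0.06 (edgeR, adjusted p = 7.54e-06). The epithelial splicing factors Esrp1 (-0.77 ± 0.07) and Esrp2 (-0.54 ± 0.07) fell, as did radixin, Rdx (-0.34 ± 0.09), which links membrane proteins to actin. Within anti-IL-6R Rdx was not called (edgeR, adjusted p = 0.0839). Its relatives Ezr (-0.06 ± 0.08) and Msn (0.04 ± 0.08) and the splicing factor Khdrbs1 (0.02 ± 0.05) were not called.

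The tenascins parted as the synthases did, but Has3 and Tnxb were both chosen for their fall, so this likeness is a description. Tnc, tenascin C, stood at 9.23 and 7.97 CPM in scramble + IgG, 8.35 and 8.23 CPM in scramble + anti-IL-6R, 14.6 and 13.3 CPM in shMCT-1 + IgG and 13.3 and 18.7 CPM in shMCT-1 + anti-IL-6R. Every shMCT-1 library was above every scramble library, with the mean 1.77 times as high. Tnc rose by a log2 fold change of 0.74 ± 0.16 within IgG (edgeR, adjusted p = 0.00366), 1.01 ± 0.16 within anti-IL-6R (adjusted p = 0.000641) and 0.88 ± 0.11 across both treatments (adjusted p = 5.47e-05). Tnc lies on the minus strand at chr4:63959785-64047015.

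Tnxb, tenascin X, stood at 106 and 98.1 CPM in scramble + IgG, 116 and 115 CPM in scramble + anti-IL-6R, 3.98 and 4.09 CPM in shMCT-1 + IgG and 4.03 and 5.05 CPM in shMCT-1 + anti-IL-6R. The mean was 25.4-fold lower in shMCT-1 cells. The fitted log2 fold change was -4.61 ± 0.12 (SE) both within IgG and within anti-IL-6R, and -4.61 ± 0.08 across both treatments. Unlike Has3, Tnxb stayed above 1 CPM in every shMCT-1 library. It lies on the plus strand at chr17:34670535-34719815. Summed tenascin transcripts were 106 to 125 CPM in scramble and 17.4 to 23.8 CPM in shMCT-1 libraries. Since Tnxb was chosen for its fall, this sum too is a description. The other 2 tenascins were hardly detected, Tnr at up to 0.0458 CPM and Tnn at up to 0.137 CPM.

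Of 8 tenascin receptors 5 were tested, of which 3 rose and 2 fell across both treatments (median log2 fold change 0.21), beside 69.0% of all tested genes called, 35.0% higher and 34.0% lower. Itgb6, an integrin beta chain of epithelial cells that pairs with the alpha V chain, rose from 2.54 to 2.99 CPM in scramble to 8.19 to 8.79 CPM in shMCT-1 libraries (log2 fold change 1.68 ± 0.11, edgeR, adjusted p = 5.77e-07). Itgb1, the most abundant of the list, rose by a log2 fold change of 0.21 ± 0.06 (edgeR, adjusted p = 0.0112), but was not called within IgG (adjusted p = 0.211). Itgb3 rose from 2.36 to 3.28 CPM in scramble to 5.50 to 7.01 CPM in shMCT-1 libraries (edgeR, adjusted p = 4.06e-05). The alpha V chain Itgav itself fell, with a log2 fold change of -0.96 ± 0.09 (edgeR, adjusted p = 6.86e-06), and so did the syndecan Sdc4, at -0.40 ± 0.06 (adjusted p = 0.000165).

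**Figure D3:**
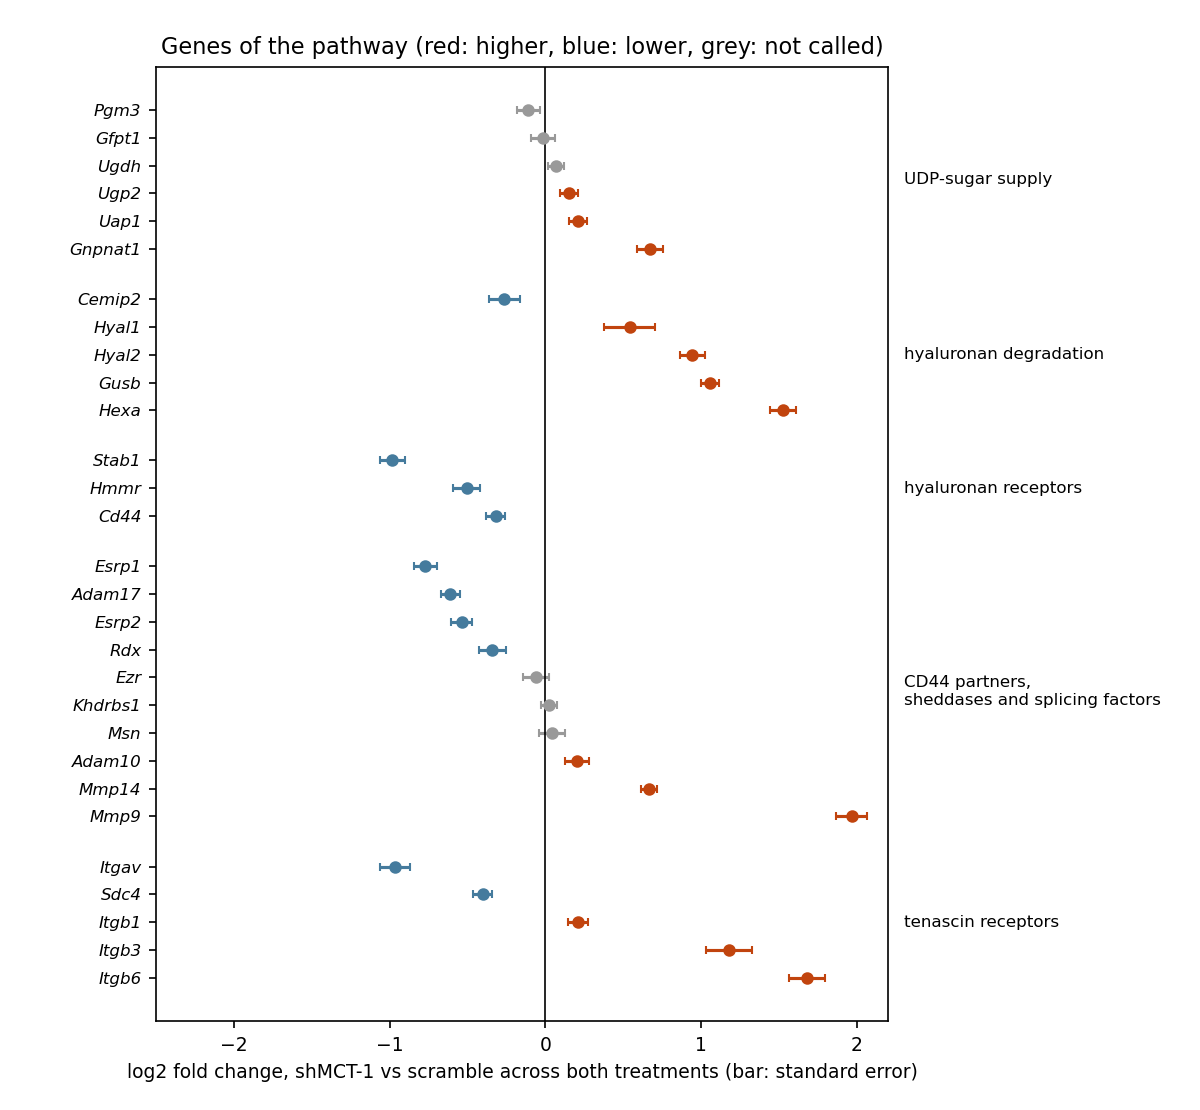
Fitted log2 fold change between shMCT-1 and scramble cells across both treatments (horizontal axis, points, with standard errors as bars) for tested genes of 5 lists (vertical axis). Red marks genes called higher, blue genes called lower and grey genes not called. Genes of degradation lie mostly to the right, from Hyal1 at 0.54 to Hexa at 1.53, and the 3 receptors lie to the left.

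Set against all genes, the number of calls was not unusual. Within IgG 54.4% of the 12704 tested genes were called, and of the 6 fitted genes not chosen for this contrast 4 were called, with Has2, Hyal2 and Tnc higher and Cd44 lower. Within anti-IL-6R 54.3% of genes were called and the calls were the same 4. Across both treatments 69.0% of genes were called, 35.0% higher and 34.0% lower, and Hyal1 joined the 4 to make 5 of 6, 4 of them higher. The libraries of the lines did not overlap in 64.4% of tested genes and in these same 5 of 6.

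Anti-IL-6R changed none of the 8 fitted genes past the threshold. All 8 were tested here, since this contrast did not choose any. In scramble cells edgeR called 0 of 12704 genes (0%), with 166 at an unadjusted p under 0.05, and DESeq2 called 0 and edgeR's exact test 10. In shMCT-1 cells edgeR called 0 genes (0%), with 505 at an unadjusted p under 0.05, against 11 by DESeq2 and 14 by the exact test. Across both lines edgeR called 0 genes (0%), with 356 at an unadjusted p under 0.05 and 1 call by DESeq2. The interaction gave 0 calls (0%), with 315 at an unadjusted p under 0.05 and 6 calls by DESeq2. These comparisons share libraries with those of shMCT-1.

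The values of the 8 genes under anti-IL-6R lay on both sides of 0. In scramble cells their log2 fold changes ran from -0.29 (Hyal1) to 0.18 (Tnxb), with 95% intervals between -0.83 and 0.38. In shMCT-1 cells they ran from -0.53 (Has3) to 0.25 (Hyal2). Has3, with 8 to 21 counts per library there, had the widest interval, -1.40 to 0.34, and the others lay between -0.80 and 0.55. Only 2 values had an unadjusted p under 0.05 in edgeR. Hyal2 in shMCT-1 cells was at a log2 fold change of 0.25 ± 0.11 (edgeR, adjusted p = 1), and Tnxb across both lines at 0.18 ± 0.07 (adjusted p = 0.995). The Tnxb libraries with anti-IL-6R were the highest of each line apart from shMCT-1 + anti-IL-6R replicate 1, which lay between the IgG libraries.

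The change of each gene in shMCT-1 cells was not shown to differ with the antibody. Interaction log2 values ran from -0.56 (Has3) to 0.26 (Tnc), and the smallest adjusted p among the 8 genes was 1 (edgeR). Has2 had the smallest unadjusted p, with an interaction of 0.25 ± 0.13 (edgeR, adjusted p = 1, 95% interval -0.04 to 0.55). For Tnxb the interaction was 0.00 ± 0.15, with an interval of -0.34 to 0.35, and its sign was the opposite with library totals as scaling (-0.01). For Has1, outside the fit, the 4 anti-IL-6R and 4 IgG libraries differed by 0.01 in mean log2 CPM (exact two-sided permutation test, p = 1).

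**Figure D4:**
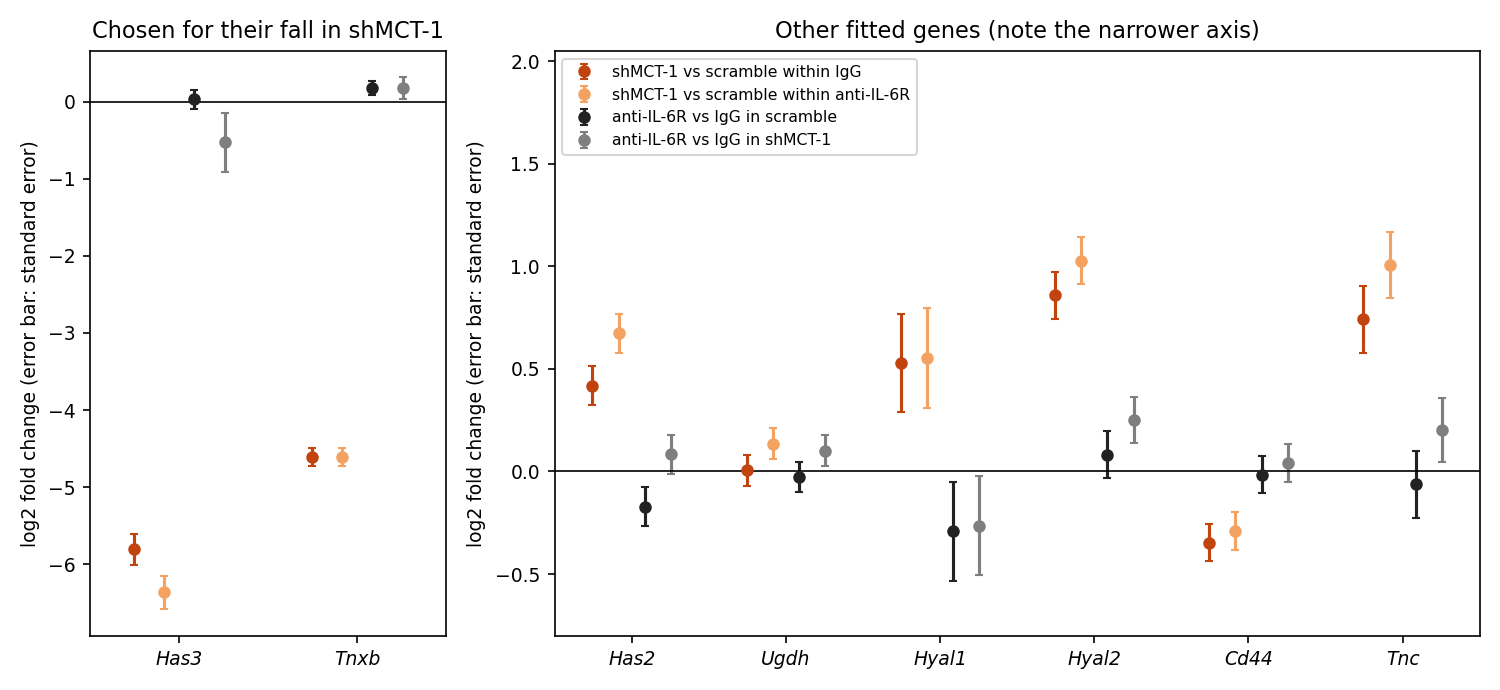
Log2 fold changes (vertical axes) of Has3 and Tnxb, left, and of the 6 other fitted genes, right, on a narrower axis. Points are fitted values and bars standard errors, with shMCT-1 against scramble within IgG (dark orange) and within anti-IL-6R (light orange), and the response to anti-IL-6R in black for scramble and grey for shMCT-1 cells. The orange points of Hyal2, Tnc and Has2 lie above 0 and those of Cd44 below, and the black and grey points run from -0.53 to 0.25.

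The genes next to Has3 and Tnxb on the chromosome did not share the size of their falls. Tango6, 18802 bases before Has3, fell by a log2 fold change of -1.08 ± 0.14 across both treatments (edgeR, adjusted p = 5.39e-05). Chtf8, which overlaps the end of Has3, was at 0.04 ± 0.06 (edgeR, adjusted p = 0.599). Beside Tnxb, Atf6b, 15460 bases away, was at -0.03 ± 0.06 (edgeR, adjusted p = 0.62), and Cyp21a1, 81532 bases away on the other side, was at -0.42 ± 0.27 (adjusted p = 0.188). The medians of the other tested genes were 0.06 on chromosome 8 and -0.01 on chromosome 17. For the genes that rose, chromosome medians were 0.17 for Has2, 0.03 for Hyal1 and Hyal2 and -0.08 for Tnc, with 79.0% of the other tested genes of the chromosome below Has2, 94.6% below Hyal2 and 94.1% below Tnc.

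The genes whose centred log2 CPM followed Has3 most closely over the 8 libraries were Gm12424, Gm29100, Dmbx1, Gas7 and Pcdh17, at root mean square distances of 0.35 to 0.61. For Tnxb they were Gas7, Krt19, Gm20632, Hsd17b11 and Gm3448, at 0.27 to 0.42. Gas7 was thus near both, with 5.28 CPM in scramble and 0.137 CPM in shMCT-1 cells. Gm12424, Gm29100, Dmbx1 and Pcdh17 had means of 1.62 to 2.87 CPM in scramble and 0 to 0.0213 CPM in shMCT-1 cells. Their log2 values in shMCT-1 cells were therefore set mostly by the small count added before taking logs. Like Gas7, these genes passed the filter on low values through the scramble libraries alone. Krt19, a keratin of luminal epithelium, went from 18.4 to 0.552 CPM. Gm20632, Hsd17b11 and Gm3448 also had means under 1 CPM in shMCT-1 cells, at 0.317 to 0.670 CPM. Such likeness follows mainly the step between the lines, as 160 genes for Has3 and 183 for Tnxb had a Pearson correlation above 0.99, and none of the 5 nearest by distance was among the 5 with the highest correlation. The libraries of each line share their depth range, and no test was made.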

How the data were processed

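Poly(A)-selected RNA of 4 groups of 2 libraries was sequenced. Per the labels and the study's methods, the authors used cutadapt 1.18 for trimming and STAR 2.7.0d for alignment to mm10 with GENCODE M19 genes, and deposited RSEM expected counts per gene, not normalized; the RSEM version is not given in the sources used here. Of the values above 0, 29.6% were not whole, and all were rounded to whole counts here. Groups and replicates came from the labels. Symbols and coordinates came from GENCODE M21 (GRCm38), in which 54409 of 54532 gene identifiers were found.

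Genes above 1 CPM in at least 2 of 8 libraries (12704) were normalized by TMM and fitted with edgeR 4.0.16 (R 4.3.3) as 4 group means, and with an additive model of line and treatment for the comparisons across both treatments or lines. The quasi-likelihood test was used, adjustment was by Benjamini-Hochberg over all tested genes, and a gene was called under 0.05. Standard errors and 95% intervals derive from the fold change and its F statistic. The edgeR p-values set each fold change against the spread between replicate libraries of a line. They do not cover variation between separately made lines. The study's TMM and the adjusted p threshold of its methods were kept. A figure legend of the study words that threshold as a p-value under 0.05. Its filter, as worded, keeps genes above 1 CPM in at least 7 libraries, which would leave out Has3, and was run as an alternative, as was its exact test. For anti-IL-6R against IgG in each line, the exact test gave fewer genes here than the study reported, possibly at an unlike threshold. The reason was not tested. Single genes were also compared by exact permutation of log2 CPM with a prior count of 0.5.

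The alternatives were DESeq2 1.42.0, edgeR's exact test, RLE or library totals as scaling, other filters or none, a fit of only the libraries compared, thinning to the smallest total, the replicate number as a block, the longest transcript as the length, and leaving out each library. The test was checked on simulated data in which far fewer genes changed than were called here, and only in shMCT-1 + IgG libraries. That check therefore does not cover a difference as broad as the one between these lines. The genes and lists were chosen with earlier results of these data known. All 9 genes, all hyaluronidases, receptors and tenascins are named, and from each further list the called genes with the largest change and the highest level; other list genes were added after their values were seen, and a few items are not reported here. The 5 most alike genes and the nearest tested gene on each side were given for Has3 and Tnxb. A comparison of protein sequences was planned and not made. Intervals and limits for counts of 0 cover counting error only.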

Additional observations from a re-analysis of the deposited data

How the results depend on the processing

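The calls of Has2, Hyal2 and Tnc held under each alternative, and Cd44 lost its call where single libraries were left out, as named above; single omissions left 3 or 4 of the 6 tested genes called within each treatment. Genes called within anti-IL-6R ranged from 4390 to 7304 with a library left out. For anti-IL-6R against IgG, calls over all genes without a filter were 64 in scramble, 133 in shMCT-1, 97 for the interaction and 73 across both lines. DESeq2 gave 11 in shMCT-1, 6 for the interaction and 1 across both lines, and the exact test gave 10 in scramble and 14 in shMCT-1. With a library left out the counts were 0 to 14 in scramble, 0 to 1 in shMCT-1, 0 to 8 for the interaction and 0 to 1 across both lines. None of these were among the 8 genes. Signs of uncalled log2 values changed near 0. For Ugdh within IgG they were -0.0118 with RLE or DESeq2, -0.0358 with library totals, -0.0076 with the filter of 7 libraries, -0.0026 with the exact test or only the libraries compared, and -0.0041 to 0.0157 with a library left out. Without a filter Cd44 in scramble was at 0.0074 and Has3 across both lines at 0.0043. The Tnxb interaction was -0.0104 with library totals, -0.0011 without a filter, -0.0071 with the filter of 7 libraries and -0.0465 after thinning. With a library left out, anti-IL-6R values in scramble ran from -0.0931 to 0.1743 for Has3, -0.0375 to 0.0052 for Cd44 and -0.1457 to 0.0322 for Tnc, and in shMCT-1 from -0.0627 to 0.156 for Cd44 and -0.0494 to 0.4281 for Tnc. Interactions ran from -0.0833 to 0.1392 for Hyal1, -0.0358 to 0.1828 for Cd44 and -0.1477 to 0.1669 for Tnxb. Across both lines values ran from -0.0989 to 0.0168 for Has2, -0.1384 to 0.0764 for Has3, -0.041 to 0.0465 for Cd44 and -0.0631 to 0.1444 for Tnc. The cause was not tested. Replicate numbers did not pair the samples (correlations of deviations -0.067 to 0.127), and the replicate block gave 7035, 7017 and 8790 calls for shMCT-1 within IgG, within anti-IL-6R and across both treatments and changed no call of the 8 genes. Depth limits Has1 and, in shMCT-1 cells, Has3, with under 30 counts per library.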

Other observations

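Of 17 genes for matrix proteins that bind or crosslink hyaluronan, 16 were under 1 CPM in all 8 libraries, and their summed level was 1.41 to 1.97 CPM in scramble and 0.546 to 1.71 CPM in shMCT-1 libraries. The exception was Vcan, versican, a large proteoglycan that binds hyaluronan, at 0.763 and 1.24 CPM in scramble + IgG, 1.02 and 1.21 CPM in scramble + anti-IL-6R, 0.183 and 0.384 CPM in shMCT-1 + IgG and 0.151 and 0.319 CPM in shMCT-1 + anti-IL-6R. The lines did not overlap, as in 64.4% of all tested genes, on 21 to 40 counts per scramble library and 3 to 9 per shMCT-1 library. Vcan passed the filter on low values through the scramble libraries alone, so its log2 fold change of -1.94 ± 0.35 is given without a test.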
